A study of Mus musculus with 8 samples.

Results

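Fc receptors, formyl-peptide receptors and other innate receptors of myeloid cells were examined in RNA sequencing of mouse colonic intestinal epithelial cell (IEC) preparations. The 8 genes, *Fcgr3*, *Fcer1g*, *Fpr1*, *Fpr2*, *Trem1*, *Clec4e*, *Cd14* and *Mrgpra2b*, were picked by name from the 128 genes listed for day 7, and *Fcer1g* is also 1 of the 309 genes listed for day 0. The lists hold only genes that the authors had selected for a difference between the genotypes, so the direction and size of that difference had already chosen these genes, and its values are given as a description with no test. Both genotypes carry floxed *Efhd2* alleles. *Efhd2* f/f Vil1cre/+ mice also carry Cre recombinase under the villin promoter, which removes *Efhd2* in the intestinal epithelium, and *Efhd2* f/f mice without Cre, the controls, keep it. IECs of each genotype were taken on day 0 without dextran sulfate sodium (DSS), an agent that injures the colonic epithelium when given in drinking water, and on day 7 after DSS, and each of these 4 groups has 2 libraries. The IEC fraction was the cells shaken off the opened colon and passed through a strainer, with no sort by surface marker. The study's experiments used young adult mice of both sexes. The sources used here do not say which mice gave the libraries, so the spread between libraries may be technical.

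These receptors let neutrophils, monocytes and macrophages sense antibody-coated particles, bacterial products and damaged cells. Fc receptors bind the constant part of antibodies and signal through adaptors with an immunoreceptor tyrosine-based activation motif (ITAM). Formyl-peptide receptors are G protein-coupled receptors that steer phagocytes towards the formylated peptides of bacteria and mitochondria, and CD14 hands lipopolysaccharide to the TLR4 complex.

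Values are normalized counts per gene, scaled by the authors within each day, so the days are not compared in level. The targeted gene was listed on day 0, where *Efhd2* was at 556 and 713 in the *Efhd2* f/f Vil1cre/+ libraries and 2663 and 2686 in the control libraries. *Efhd2* was not in the day 7 list, so the targeted gene was not among those the authors selected for a genotype difference on that day. Its level in the day 7 libraries is not known here, and their genotype labels were not checked this way. The total depth of the libraries cannot be read from lists that hold part of the genes. Differences are *Efhd2* f/f Vil1cre/+ minus control in mean log2(normalized count + 1), with the standard error (SE) from 2 libraries per genotype. The added 1 makes the change of a low gene look smaller. For any 1 gene, the smallest two-sided p of an exact permutation test of 2 libraries against 2 is 0.333.

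On day 7 all 8 genes were higher in both *Efhd2* f/f Vil1cre/+ libraries than in either control library. Among all 128 listed genes this held for 116, or 90.6%, so the separation says nothing particular about the 8 receptors. Their log2 differences ran from 1.70 for *Trem1* to 2.62 for *Fpr1* with a median of 2.01, beside a median of 2.53 over all listed genes. Counted from the highest signed log2 difference down, they ranked between 55 (*Fpr1*) and 107 (*Trem1*) of the 128. In this order the genes lower in *Efhd2* f/f Vil1cre/+ libraries come last, whatever the size of their difference. In bulk RNA, a change in the number of cells of a type and a change in RNA per cell cannot be told apart.

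**Figure D1:**
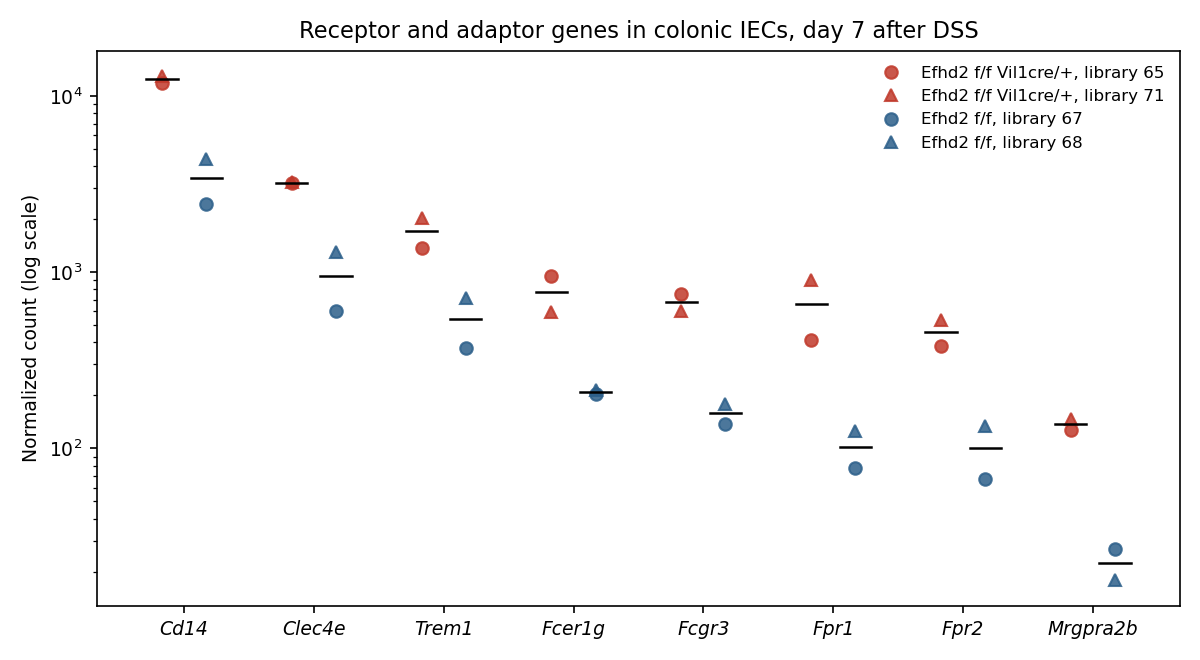
Normalized counts on day 7 (log axis) of the 8 receptor and adaptor genes, 1 point per library, with bars at the mean of the 2 libraries of a genotype. In every gene both *Efhd2* f/f Vil1cre/+ libraries lie above both control libraries, and *Cd14* reaches 11964 and 13046.

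Neutrophil markers were higher in the same libraries as the receptors. The day 7 list held 14 of 30 such markers, each higher in both *Efhd2* f/f Vil1cre/+ libraries than in either control library (median log2 difference 3.25, lowest 2.45). The same separation held for 116 of all 128 listed genes (90.6%), so it says nothing particular about the listed markers. The calprotectin subunit *S100a9* was at 10154 and 21631 against 2125 and 2905, and its partner *S100a8* at 4516 and 15016 against 1038 and 1752. The sum over the 14 markers was 21935 and 70522 in *Efhd2* f/f Vil1cre/+ libraries 65 and 71 and 4258 and 7196 in control libraries 67 and 68. *Stfa2* was under 1e-06 in both control libraries and was set to 0 there. Of 24 macrophage and monocyte markers, 4 were listed (*Spp1*, *Chil3*, *Fn1* and *F13a1*), all higher in both *Efhd2* f/f Vil1cre/+ libraries, with sums of 3371 and 8026 against 321 and 940. None of the 13 mast cell and basophil, 26 T and NK cell, 14 B and plasma cell or 20 epithelial markers was listed on day 7, and their levels in those libraries were not analysed here. The part of these markers in the receptor values was not tested.

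The libraries of 1 genotype also stood apart. *Ngp*, a protein of neutrophil granules, was at 90.6 in library 65 and 7712 in library 71, and the other listed neutrophil markers were higher in library 71 too. Over all 128 listed genes, 83 were higher in library 71. Without library 71 the log2 differences of the 8 receptor genes ran from 1.41 to 2.49 with a median of 2.02, and without library 65 from 1.51 to 3.19 with a median of 1.99.

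*Fcgr3* and *Fcer1g* encode 2 parts of 1 receptor complex. *Fcgr3* encodes Fc gamma receptor III, a low-affinity receptor for IgG complexes, and *Fcer1g* the FcR gamma chain, the ITAM adaptor that it and several other receptors need. In GRCm38 coordinates *Fcgr3* (ENSMUSG00000059498) lies on the minus strand at chr1:171051174-171064935 and *Fcer1g* (ENSMUSG00000058715) on the same strand at chr1:171229572-171234365. They are 164636 bp apart, with 9 annotated genes between them. The 250 bases before each start site in RefSeq (GRCm38.p6, minus strand, 5′ to 3′) are shown because the genes supply the same complex; the *Fcgr3* window is chr1:171059404-171059653, inside the annotated gene, and the *Fcer1g* window is chr1:171234350-171234599. Capitals mark GAGGAA or its reverse complement TTCCTC, a core bound by PU.1-type factors, and TTGCNNAA or TTNNGCAA, a C/EBP-type core.
Fcgr3: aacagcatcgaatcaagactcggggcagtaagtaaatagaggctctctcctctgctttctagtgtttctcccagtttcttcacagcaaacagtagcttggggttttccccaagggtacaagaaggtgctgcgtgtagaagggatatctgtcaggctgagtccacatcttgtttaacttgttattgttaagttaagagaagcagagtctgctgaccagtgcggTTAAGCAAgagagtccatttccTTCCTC
Fcer1g: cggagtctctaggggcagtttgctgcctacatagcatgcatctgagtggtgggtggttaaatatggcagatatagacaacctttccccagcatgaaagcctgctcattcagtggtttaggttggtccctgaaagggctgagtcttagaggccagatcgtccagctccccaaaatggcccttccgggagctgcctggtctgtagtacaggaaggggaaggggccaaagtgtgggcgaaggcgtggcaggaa
The *Fcgr3* window holds a match to each core, and the *Fcer1g* window holds neither.

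*Fcgr3* was at 754 and 604 normalized counts in *Efhd2* f/f Vil1cre/+ libraries 65 and 71 and at 138 and 179 in control libraries 67 and 68. The means were 679 ± 106 and 159 ± 29.2 (SD, n = 2 libraries each), 4.27-fold apart, with a log2 difference of 2.09 (SE 0.25). Of the 1733 windows of 50 bases in its transcripts, 166 (9.58%) also occur in *Fcgr2b*, the inhibitory Fc gamma receptor, so a part of its reads may be shared. The adaptor *Fcer1g* was at 958 and 596 in the *Efhd2* f/f Vil1cre/+ libraries and at 203 and 214 in the control libraries. Its means were 777 ± 256 and 208 ± 7.72 (SD, n = 2), a log2 difference of 1.85 (SE 0.34). These were the only 2 of the 8 genes that were lower in library 71 than in library 65, beside 44 of all 128 listed genes. The log2 ratio was -0.32 for *Fcgr3* and -0.68 for *Fcer1g*. Per kilobase of gene length, *Fcgr3* stood at 0.343 to 0.510 times the level of *Fcer1g* across the 4 libraries.

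*Fpr1*, *Fpr2* and *Mrgpra2b* encode G protein-coupled receptors. *Fpr1* and *Fpr2* respond to formylated peptides and related ligands, and *Mrgpra2b* belongs to the Mas-related receptor family, of which a few members are found in neutrophils. *Fpr1* (minus strand, chr17:17876471-17883940) and *Fpr2* (plus strand, chr17:17887824-17893952) are divergent neighbours separated by 3883 bp with 0 annotated genes between them. *Fpr2* overlaps *Fpr3* on the same strand. *Mrgpra2b* lies on the minus strand at chr7:47463806-47528862. Their 250 upstream bases (RefSeq, GRCm38.p6, 5′ to 3′ on the strand of the gene, with the same capitals) are shown because the *Fpr* pair shares 1 stretch between genes, and because the *Mrgpra2b* window cannot be told from that of its near copy *Mrgpra2a*. The windows are chr17:17883940-17884189 for *Fpr1*, chr17:17887574-17887823 for *Fpr2* and chr7:47489583-47489832 for *Mrgpra2b*, the last inside the annotated gene.
Fpr1: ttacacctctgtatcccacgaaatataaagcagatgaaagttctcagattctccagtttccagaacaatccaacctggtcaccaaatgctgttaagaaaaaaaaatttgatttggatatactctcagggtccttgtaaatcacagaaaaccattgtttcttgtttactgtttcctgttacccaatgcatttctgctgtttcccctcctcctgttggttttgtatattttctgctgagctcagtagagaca
Fpr2: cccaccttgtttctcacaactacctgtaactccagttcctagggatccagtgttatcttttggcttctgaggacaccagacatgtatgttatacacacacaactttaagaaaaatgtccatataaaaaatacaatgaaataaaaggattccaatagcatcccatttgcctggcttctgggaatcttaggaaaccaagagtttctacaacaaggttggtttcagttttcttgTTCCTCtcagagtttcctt
Mrgpra2b: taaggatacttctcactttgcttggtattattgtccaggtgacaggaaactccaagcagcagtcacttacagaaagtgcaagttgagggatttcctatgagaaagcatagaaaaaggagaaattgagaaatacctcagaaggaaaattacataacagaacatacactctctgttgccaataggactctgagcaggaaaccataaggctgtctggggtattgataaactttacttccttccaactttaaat
*Fpr2* holds a PU.1-type core, and the windows of *Fpr1* and *Mrgpra2b* hold neither core. The *Mrgpra2b* and *Mrgpra2a* windows were identical at 250 of 250 bases. Over the 7 of the 8 genes whose windows were searched, 4 hold the PU.1-type core and 2 the C/EBP-type core, beside 23.1% and 9.55% of 27025 mouse promoters of the same length. None of the 7 holds the AP-1-type sequence TGANTCA, which 6.87% of promoters hold. A match of letters is no evidence of binding.

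*Fpr1* was at 413 and 909 in *Efhd2* f/f Vil1cre/+ libraries 65 and 71 and at 77.6 and 126 in control libraries 67 and 68. Its means were 661 ± 351 and 102 ± 34.4 (SD, n = 2), 6.48-fold apart, with a log2 difference of 2.62 (SE 0.67). Without library 71 the log2 difference was 2.05, and without library 65 it was 3.19. *Fpr2* was at 379 and 537 in the *Efhd2* f/f Vil1cre/+ libraries and at 67.2 and 134 in the control libraries, with a log2 difference of 2.24 (SE 0.55). Of the 1295 windows of 50 bases in *Fpr2* transcripts, 408 (31.5%) also occur in other genes, mostly the predicted gene *Gm5966* and *Fpr3*, so its count is uncertain. Per kilobase *Fpr1* was 1.07 and 1.66 times *Fpr2* in the *Efhd2* f/f Vil1cre/+ libraries and 1.13 and 0.922 times in the control libraries, so the order of the pair was not the same in every library.

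*Mrgpra2b* was the lowest of the 8 genes, at 127 and 147 in the *Efhd2* f/f Vil1cre/+ libraries and 26.8 and 17.8 in the control libraries. Its means were 137 ± 13.9 and 22.3 ± 6.40 (SD, n = 2), 6.14-fold apart, and the log2 difference was 2.59 (SE 0.30). It was the only 1 of the 8 that was lower in control library 68 than in library 67 (log2 ratio -0.57), beside 23 of all 128 listed genes. Of its 1277 windows, 1037 (81.2%) also occur in *Mrgpra2a*, so these reads may belong to either gene.

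*Trem1* and *Clec4e* encode activating receptors that signal through ITAM adaptors. TREM-1 pairs with DAP12 and amplifies inflammatory signalling in neutrophils and monocytes. *Clec4e* encodes Mincle, a C-type lectin that binds mycobacterial and fungal glycolipids and a protein released by dead cells, and it uses the FcR gamma chain encoded by *Fcer1g*. *Trem1* lies on the plus strand at chr17:48232768-48246924, where it overlaps an antisense gene; the sources used here do not say whether reads were counted by strand. It was at 1369 and 2046 in the *Efhd2* f/f Vil1cre/+ libraries and at 372 and 714 in the control libraries. Its log2 difference was 1.70 (SE 0.55). *Clec4e* lies on the minus strand at chr6:123281789-123289870. It was at 3206 and 3269 in the *Efhd2* f/f Vil1cre/+ libraries, nearly level, and at 604 and 1310 in the control libraries, with a log2 difference of 1.86 (SE 0.56). Its SD was 44.3 around a mean of 3238 in *Efhd2* f/f Vil1cre/+ IECs and 499 around a mean of 957 in control IECs. Per kilobase, *Clec4e* was at 0.524 to 1.08 times the level of *Fcer1g* over the 4 libraries. No 50-base window of *Fcer1g*, *Trem1*, *Clec4e* or *Cd14* occurs, on either strand, in a transcript of another gene. The transcripts of *Trem1* and of the antisense gene thus share no stretch of 50 bases.

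*Cd14* encodes a coreceptor for lipopolysaccharide that is anchored to the surface of monocytes and other phagocytes. It lies on the minus strand at chr18:36725074-36726736. It was at 11964 and 13046 in the *Efhd2* f/f Vil1cre/+ libraries and at 2458 and 4394 in the control libraries. The means were 12505 ± 765 and 3426 ± 1369 (SD, n = 2), 3.65-fold apart, with a log2 difference of 1.93 (SE 0.42).

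Levels of different genes were compared per kilobase of gene length. *Cd14* was the highest of the 8 in each library and made up 69.5% and 69.9% of their summed level in the *Efhd2* f/f Vil1cre/+ libraries and 69.4% and 72.5% in the control libraries. Below it in *Efhd2* f/f Vil1cre/+ IECs came *Fcer1g* (889 ± 293), *Clec4e* (652 ± 8.92), *Trem1* (570 ± 160), *Fpr1* (499 ± 265), *Fcgr3* (391 ± 61.0) and *Fpr2* (354 ± 86.0; all SD, n = 2), where each neighbouring pair was closer than the larger SD of the pair. *Mrgpra2b* was lowest in each library, at 103 ± 10.4 per kilobase in *Efhd2* f/f Vil1cre/+ IECs. In control IECs the order began with *Cd14* (2179 ± 871), *Fcer1g* (238 ± 8.83), *Clec4e* (193 ± 100.4) and *Trem1* (181 ± 80.6), again with the last 3 closer than their SD. Next came *Fcgr3* (91.5 ± 16.8), *Fpr2* (77.6 ± 36.4) and *Fpr1* (77.0 ± 26.0), and *Mrgpra2b* was at 16.7 ± 4.80.

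The ratio between the libraries of a genotype is a separate quantity from the genotype difference, but the adjusted p-value that decided which genes were listed depends on it, and each ratio is a single pair with no replicate. Between *Efhd2* f/f Vil1cre/+ libraries 71 and 65, the 8 genes had log2 ratios from -0.68 (*Fcer1g*) to 1.14 (*Fpr1*) with a median of 0.17, beside a median of 0.32 over all listed genes. The 14 neutrophil markers ran from 1.09 to 6.40 with a median of 1.71, and 13 of the 14 were above *Fpr1*. *Fpr1* was the only receptor gene inside the range of the neutrophil markers. *Clec4e* (0.03) and *Cd14* (0.12) were nearly level between the libraries in which *S100a8*, *S100a9* and *Ngp* were not. The 4 listed macrophage and monocyte markers ran from -2.94 to 2.22 with a median of 1.04, a range that holds all 8 receptor genes. Which cells made the receptor RNA was not tested. Between control libraries 68 and 67, the median log2 ratio was 0.77 for the 8 genes and 0.88 for all listed genes.

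**Figure D2:**
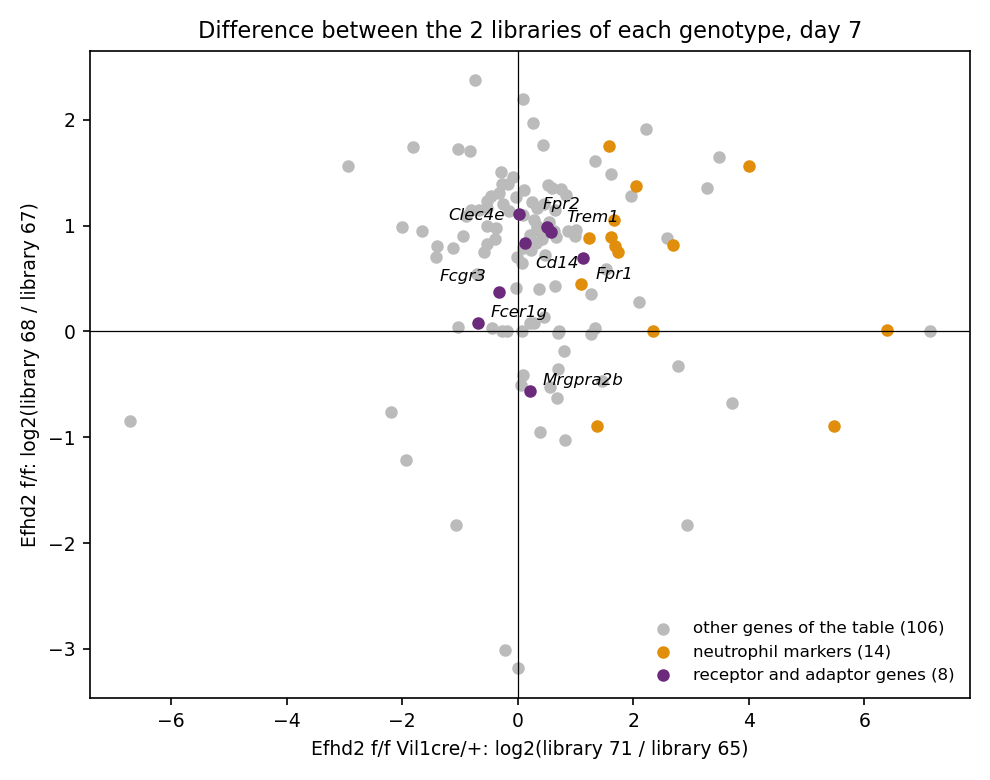
Log2 ratio between the *Efhd2* f/f Vil1cre/+ libraries 71 and 65 (horizontal) and between the control libraries 68 and 67 (vertical) for each of the 128 genes listed on day 7, computed on normalized count + 1. The 14 neutrophil markers (orange) lie from 1.09 to 6.40 on the horizontal axis, and the 8 receptor and adaptor genes (purple) from -0.68 to 1.14. The 4 listed macrophage and monocyte markers, among the grey points, lie from -2.94 to 2.22.

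**Figure D3:**
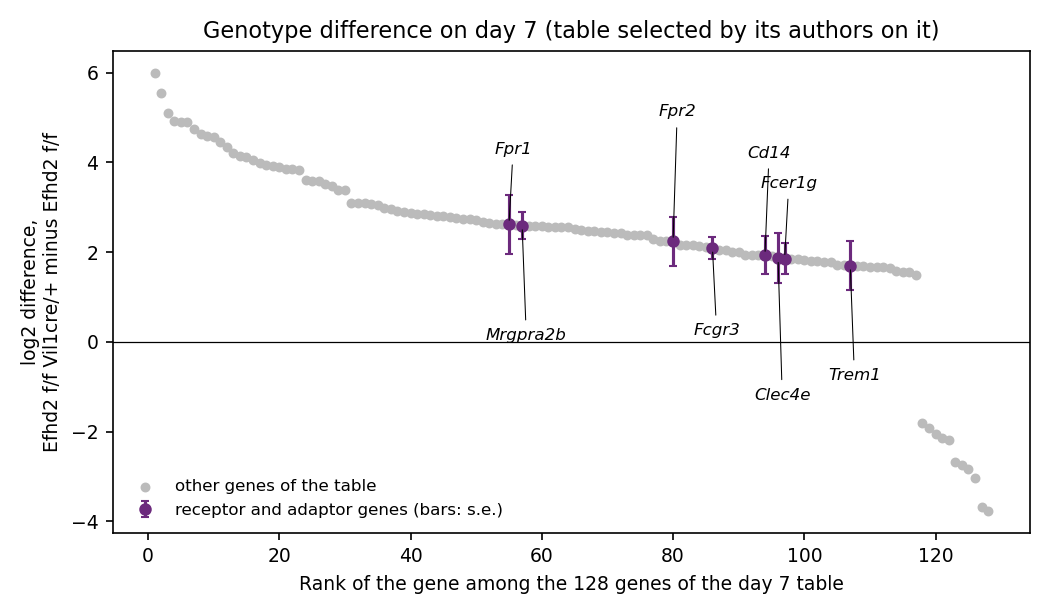
Log2 difference between the genotypes on day 7 for the 128 listed genes, from the highest signed value to the lowest. The 8 receptor and adaptor genes are marked, with error bars for their SE. They occupy ranks 55 to 107, and 11 genes lie below 0.

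Likeness of profile was measured by the Euclidean distance between log2(normalized count + 1) values, centred on each gene's mean over the 4 day 7 libraries. The points are the same 4 libraries for each pair, and the genotype difference that all listed genes share enters the distance. *Fcgr3* was nearest to *Socs3* (0.32), *Abca1* (0.39) and *Fcer1g* (0.41). *Fcer1g* was nearest to *Fcgr3* (0.41), *Plet1* (0.43) and *Abca1* (0.60). *Clec4e* and *Cd14* were 0.22 apart, and *Emilin2* was the third nearest gene of both (0.26 and 0.24). *Slfn2* lay 0.24 from *Clec4e* and *Hk3* 0.21 from *Cd14*.

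The formyl-peptide receptors were nearest to other genes. *Fpr1* was nearest to *S100a9* (0.18), *Igkv10-96* and *Lrg1* (both 0.32), and its distance to *Fpr2* was 0.62. *Fpr2* was nearest to *Bst1* (0.12), haptoglobin *Hp* (0.18) and *Mcemp1* (0.25). *Trem1* was nearest to *Vim* (0.08), *Lgmn* (0.13) and *Clec2h* (0.13), and *Mrgpra2b* to 9130204K15Rik (0.24), *Steap4* (0.29) and *Pla2g12b* (0.48). The farthest pair among the 8 was *Fpr1* and *Fcer1g*, at 1.56.

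Other genes of the same pathways were counted among the genes listed on day 7. Of all 128 listed genes, 116 (90.6%) were higher in both *Efhd2* f/f Vil1cre/+ libraries than in either control library. The direction of a listed gene thus says nothing particular about its pathway. Of 44 Fc receptor and ITAM signalling genes, the 4 listed were *Fcgr3*, *Fcer1g*, *Trem1* and *Clec4e* themselves, and all 4 were higher in both *Efhd2* f/f Vil1cre/+ libraries. Of 31 chemoattractant receptor genes, 4 were listed and all 4 higher, and the only addition was *Gpr84*, a receptor for medium-chain fatty acids, at 54.9 and 76.0 against 4.20 and 11.0. Of 33 genes for lipopolysaccharide and pattern recognition, 2 were listed, *Cd14* and the scavenger receptor *Marco*. *Marco* was at 32.5 and 26.7 in the *Efhd2* f/f Vil1cre/+ libraries. In both control libraries it was under 1e-06 and was set to 0. Levels of the genes that were not listed, such as the adaptor *Tyrobp*, the kinase *Syk* and the lipopolysaccharide receptor *Tlr4*, were not analysed here.

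Of 26 cytokine and effector genes that such receptors can induce, 8 were listed. In all 8 both *Efhd2* f/f Vil1cre/+ libraries were above both control libraries, as in 116 of all 128 listed genes (90.6%). The log2 differences of the 8 ran from 1.71 for *Osm*, an interleukin-6 family cytokine, to 4.45 for *Nos2*, the inducible nitric oxide synthase. Induction by the receptors was not tested. The neutrophil chemokine *Cxcl2* was at 14087 and 10183 in the *Efhd2* f/f Vil1cre/+ libraries and 1917 and 4665 in the control libraries. *Csf3*, the neutrophil growth factor G-CSF, was at 319 and 260 against 14.5 and 43.0. The other listed genes were *Il1a*, *Cxcl3*, *Ccl3* and *Socs3*. Unlike the neutrophil markers, 7 of the 8 were lower in library 71 than in library 65, with a median log2 ratio of -0.50. Over all 128 listed genes, 44 were lower in library 71. Of the 7, *Socs3* was nearly level, at 6118 in library 65 and 6081 in library 71.

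*Fcer1g* was the only 1 of the 8 genes listed on day 0, and there it was lower in *Efhd2* f/f Vil1cre/+ IECs. It was at 28.4 and 61.5 in *Efhd2* f/f Vil1cre/+ libraries 51 and 53 and at 191 and 149 in control libraries 50 and 52. The means were 45.0 ± 23.4 and 170 ± 29.9 (SD, n = 2), 3.78-fold lower in *Efhd2* f/f Vil1cre/+ IECs, with a log2 difference of -1.98 (SE 0.57). Both *Efhd2* f/f Vil1cre/+ libraries were below both control libraries for 207 of the 309 genes listed on day 0 (67%) and above both for 99 (32%). Its 3 nearest profiles were *AI182371* (0.24), *Chd5* (0.25) and 2900052L18Rik (0.28).

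**Figure D4:**
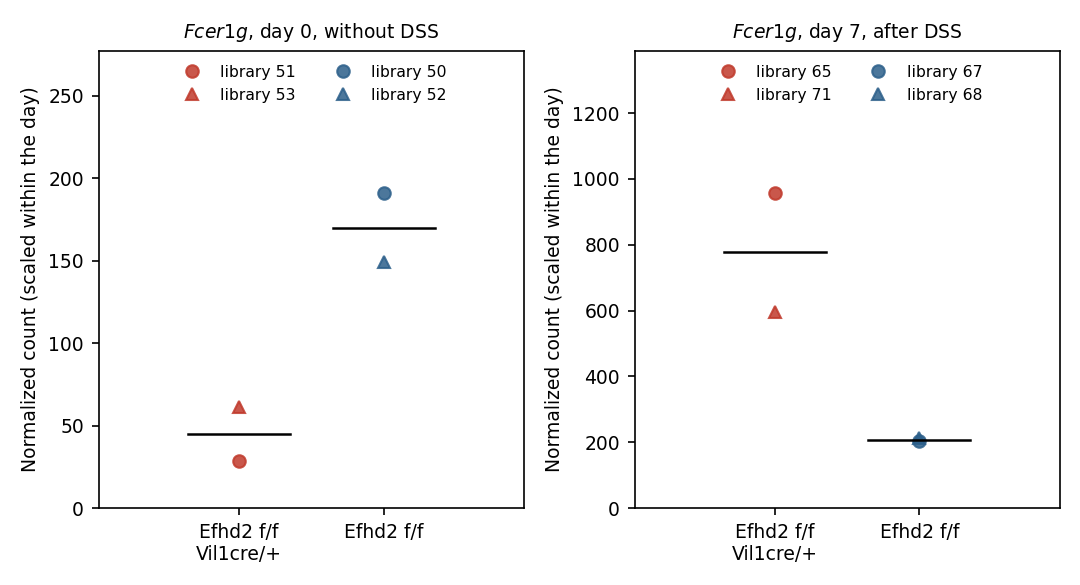
Normalized counts of *Fcer1g* in each library on day 0 without DSS (left) and on day 7 after DSS (right), on axes scaled separately because each day was normalized on its own, with bars at the mean of 2 libraries. On day 0 the *Efhd2* f/f Vil1cre/+ libraries (28.4 and 61.5) lie below the control libraries (191 and 149), and on day 7 they lie above them.

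Of the other pathway genes on day 0, *Ltb4r1*, a leukotriene B4 receptor, was at 6.08 and 6.49 in the *Efhd2* f/f Vil1cre/+ libraries and 27.4 and 31.4 in the control libraries. *Nos2* was lower (log2 difference -2.05) and *Cxcl1* higher (2.55, SE 0.72) in *Efhd2* f/f Vil1cre/+ IECs. *Cxcl1* was near the floor, at 19.3 and 16.7 against 0.966 and 4.28 in the control libraries. None of the 33 genes for lipopolysaccharide and pattern recognition was listed. The FcR gamma chain is also made by NK cells and some T cells. Of the 26 T and NK cell markers, the day 0 list held 7 (*Cd3d*, *Trac*, *Trdc*, *Cd7*, *Cd160*, *Nkg7* and *Xcl1*). In each of the 7 both *Efhd2* f/f Vil1cre/+ libraries were below both control libraries, with a median log2 difference of -1.16. Their sums were 1197 and 1450 in the *Efhd2* f/f Vil1cre/+ libraries and 3770 and 2203 in the control libraries. Separation in this direction held for 67% of all genes listed on day 0. The macrophage and dendritic cell markers *Spp1* and *Itgax*, the B cell marker *Ighd* and the epithelial markers *Aqp8* and *Chga* were also lower, and no mast cell or basophil marker was listed. The part of these cell markers in the *Fcer1g* values was not tested.

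The lists of the days shared 9 genes, 7.03% of the day 7 list and 2.91% of the day 0 list. In 7 of the 9 the genotypes were separated in opposite directions on the 2 days. Over all listed genes, both *Efhd2* f/f Vil1cre/+ libraries were above both control libraries for 90.6% on day 7. On day 0 they were below both for 67% and above both for 32%. Opposite directions are thus common between these lists, and the count says nothing particular about the 9 shared genes. *Fcer1g* was 1 of 6 genes, with 9130204K15Rik, *Abca1*, *Nos2*, *Saa3* and *Spp1*, that were higher in *Efhd2* f/f Vil1cre/+ IECs on day 7 and lower on day 0. *Abca1* was also among the 3 genes nearest to *Fcer1g* on day 7.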

How the data were processed

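RNA of colonic IEC fractions was sequenced from libraries prepared with an NEBNext Ultra kit. The submitters' processing notes name CASAVA 1.8, fastp, HISAT2 2.0.5, featureCounts 1.5.0-p3 and DESeq2 1.20.0, with builds GRCm38 and mm10. The deposited signal is a normalized count per gene and library; the authors listed only genes that passed DESeq2 at a fold change beyond 1 on the log2 scale, in either direction, with adjusted p below 0.05, and scaled each day separately. The scaling method is not given in the sources used here, whole reads were not recovered, and depth is unknown. The authors' fold changes and p-values were not used.

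Values under 1e-06 were set to 0 (14 on day 7, 25 on day 0). Differences of mean log2(value + 1), separations, distances and sums were computed in Python 3.11.15 (numpy 2.4.6, pandas 2.3.3, matplotlib 3.10.9) and tested on simulated data. Alternatives were pseudocounts of 0.1 and 10, the ratio of means, a mean of at least 50, and each library left out. Transcripts and overlaps were read from GENCODE M21 and promoters from RefSeq, with 50-base windows matched exactly.

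Named genes were all 8 receptor genes, separated genes of the pathway lists and listed genes of the marker lists (at most 8 per list by mean level), and the 3 nearest profiles of each receptor gene. *Abca1*, *Saa3* and 9130204K15Rik in the comparison of days, and the unlisted *Tyrobp*, *Syk* and *Tlr4*, were named outside this rule. The members and the lists were chosen with earlier results of these data known. Library numbers in the columns are not replicate numbers. A withheld item is not reported here.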

Additional observations from a re-analysis of the deposited data

Results flagged for a closer look

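3 genes of the lists examined had genotype differences of opposite sign on the 2 days, with each *Efhd2* f/f Vil1cre/+ library on 1 side of both control libraries on day 7 and on the other side on day 0. The log2 differences were 1.85 on day 7 and -1.98 on day 0 for *Fcer1g*, 4.45 and -2.05 for *Nos2*, and 2.67 and -2.85 for *Spp1*. *Spp1* was near the floor on day 0, at 1.01 and 0 against 9.80 and 8.71 in the control libraries. On day 7 it was at 755 and 97.6 against 24.0 and 72.9 (SE 1.66). Over all listed genes, 90.6% were separated upwards on day 7 and 67% downwards on day 0, so opposite signs are common between the lists. The difference between the days was not tested, since the days were normalized separately and their lists hold genes selected on each day's own contrast.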

How the results depend on the processing

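No log2 difference changed sign under any alternative run, and none could, because the genotypes were separated in each of these genes. Leaving out 1 library at a time, the median over the 8 receptor genes on day 7 was 1.78 to 2.33. All 8 stayed above in each case, which their separation had fixed in advance. Only the sizes could vary. The single genes ranged from 1.90 to 2.28 (*Fcgr3*), 1.51 to 2.20 (*Fcer1g*), 2.05 to 3.19 (*Fpr1*), 1.75 to 2.73 (*Fpr2*), 1.23 to 2.17 (*Trem1*), 1.30 to 2.42 (*Clec4e*), 1.51 to 2.34 (*Cd14*) and 2.31 to 2.87 (*Mrgpra2b*); *Fcer1g* on day 0 ranged from -2.53 to -1.44. With a pseudocount of 10 the log2 difference of *Mrgpra2b* was 2.20 and its log2 ratio of library 68 to 67 was -0.41. Among genes whose mean was 50 or more, 128 instead of 207 genes of day 0 had both *Efhd2* f/f Vil1cre/+ libraries below both control libraries, as fewer genes entered; the 8 receptor genes all passed. No paired analysis was possible because the numbers in the column names could not be tied to the labels' replicate numbers, and no test was made. With 2 libraries per group and unknown depth, low values such as those of *Mrgpra2b* have no counting interval.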
